A study of Mus musculus with 9 samples.

Results

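Hard keratins are the filament proteins of the hair shaft. The genes described here are Krt31, Krt32, Krt33a, Krt33b, Krt34, Krt35, Krt81, Krt82 and Krt86, which are 9 of the 55401 genes in the count table and 9 of the 34637 in the FPKM table. They were chosen by gene name from a list of 10 cortex and cuticle keratins, and 1 gene of that list was not analysed here. FPKM scales the fragments of a gene by its length and by the depth of the library, so FPKM levels can be compared between genes. All 9 genes had counts in every library, from 306 to 36539.

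The RNA came from the back skin of male C57BL/6 mice aged 6 to 8 weeks at the start. All mice of both groups were shaved on the back on day 0 over a square of 2 cm, which removes the visible hair. They were sensitized on day 1 with 200 μL of 1% DNCB, a small reactive molecule that raises a contact allergy, and challenged with 100 μL of 0.5% DNCB from day 4 to day 21. The 5 FJDHF-M libraries came from mice fed Fangji Dihuang formulation (FJDHF, a herbal mixture) daily after day 7 until day 28, and the 4 Model libraries from mice given water instead. Unshaved or untreated skin was not analysed here, so the levels below have no healthy background.

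The files name the libraries MR1, MR3, MR3_4, MR4_5 and MR5, taken here as FJDHF-M, and MXL_3, MXL1, MXL12 and MXL3_4, taken as Model. Neither the labels nor the study's methods explain these codes, and they were assigned by their numbers and because MX abbreviates the Chinese for model. The codes are not tied to single mice, a code with more than 1 number may stand for pooled mice, and every direction between the groups rests on this assignment. Total counts were 75221234 to 77372568 in FJDHF-M and 74648669 to 79474215 in Model. The skin label was matched by Krt5 of the basal epidermis, at 238 to 1419 FPKM, and Krt10 of the suprabasal epidermis, at 446 to 2435 FPKM. Skeletal muscle RNA differed widely between libraries, with Tnnt3, a fast muscle troponin, at 95.7 to 1787 FPKM.

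Keratins assemble as pairs of an acidic type I and a basic type II chain. In a growing follicle, cells of the matrix at the base of the hair bulb divide, move up and become the cortex, which is the bulk of the shaft, or the cuticle, its scaly cover. Krt35 appears early, in the matrix and precortex, and Krt31, Krt33a, Krt33b, Krt34, Krt81 and Krt86 follow higher up in the cortex. Krt32 and Krt82 belong to the cuticle. Resting follicles make no new shaft, so these mRNAs are known as marks of the growth phase. In whole skin, fewer shaft-forming cells and less keratin mRNA per cell cannot be told apart.

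The 6 type I genes lie side by side on chromosome 11 between bases 100011195 and 100096241 of GRCm38 (mm10), in the order Krt33a, Krt33b, Krt34, Krt31, Krt32 and Krt35, all on the minus strand. The 3 type II genes lie on chromosome 15 between bases 101459061 and 101550667, with Krt81 and Krt82 on the minus strand and Krt86 on the plus strand. Start sites with a promoter entry in RefSeq (GRCm38.p6) were found for 5 of the 9 genes, namely Krt31, Krt32, Krt33b, Krt34 and Krt82. Their 250 bases before the start are printed because 4 of them share the same arrangement of letters. Capitals mark CTTTGAAG, which resembles the site of Lef1, a factor of the hair matrix, TTTTATG, which resembles the site of Hoxc13, a factor needed for hair keratin expression, and the TATA box letters TATAAA. All windows read 5′ to 3′ on the minus strand.
Krt31, chr11:100050552-100050801: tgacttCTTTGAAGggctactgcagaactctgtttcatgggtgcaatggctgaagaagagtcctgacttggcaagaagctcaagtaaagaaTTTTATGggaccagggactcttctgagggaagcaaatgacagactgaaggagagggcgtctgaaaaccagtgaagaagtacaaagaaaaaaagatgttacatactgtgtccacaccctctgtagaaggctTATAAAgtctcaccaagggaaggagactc
Krt34, chr11:100041555-100041804: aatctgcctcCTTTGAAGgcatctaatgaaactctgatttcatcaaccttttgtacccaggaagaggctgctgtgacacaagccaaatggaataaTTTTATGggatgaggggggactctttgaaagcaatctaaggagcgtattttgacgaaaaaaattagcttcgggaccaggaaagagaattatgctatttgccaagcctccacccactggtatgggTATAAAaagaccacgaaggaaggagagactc
Krt33b, chr11:100029869-100030118: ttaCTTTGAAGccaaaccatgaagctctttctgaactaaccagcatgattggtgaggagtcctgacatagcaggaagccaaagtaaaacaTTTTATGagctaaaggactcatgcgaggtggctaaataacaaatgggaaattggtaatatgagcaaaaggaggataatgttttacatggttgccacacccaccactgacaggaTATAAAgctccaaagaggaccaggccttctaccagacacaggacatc
Krt32, chr11:100088270-100088519: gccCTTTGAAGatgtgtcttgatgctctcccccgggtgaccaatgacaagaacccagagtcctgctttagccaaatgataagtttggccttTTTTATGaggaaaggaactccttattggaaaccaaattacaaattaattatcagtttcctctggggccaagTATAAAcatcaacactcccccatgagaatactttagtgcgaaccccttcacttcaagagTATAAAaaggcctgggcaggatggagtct
Krt82, chr15:101550660-101550909: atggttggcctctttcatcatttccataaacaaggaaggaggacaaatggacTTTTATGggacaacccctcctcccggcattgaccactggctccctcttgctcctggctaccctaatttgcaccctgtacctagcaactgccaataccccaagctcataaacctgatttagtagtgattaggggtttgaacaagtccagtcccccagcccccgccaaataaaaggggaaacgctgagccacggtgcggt

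The 4 type I windows held all 3 motifs in the same order. CTTTGAAG began 244 bases before the start in Krt31, 240 in Krt34, 247 in Krt33b and 247 in Krt32. TTTTATG followed 85 bases on in Krt31 and Krt34, 87 in Krt33b and 88 in Krt32. The Krt82 window held TTTTATG alone, 198 bases before the start. Searched on both strands of all 32851 windows of this length, CTTTGAAG was in 1.42%, TTTTATG in 3.77% and TATAAA in 12.4%, and none of the motifs overlapped another in the windows printed. Together they were in 8 windows, or 0.0244%, and 4 of these 8 belonged to the 9 keratins. Among the 8 inner root sheath and companion layer keratins with an entry, 0 held CTTTGAAG, 1 held TTTTATG and 7 held TATAAA. Of the 4 other hard keratins with an entry, 1 held CTTTGAAG, 3 held TTTTATG and 2 held TATAAA, and of the 50 keratin-associated proteins 6, 11 and 40 did. The motifs were chosen after the sequences were seen, and a match in letters is not a measured binding site.

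All 9 keratins were expressed in all 9 libraries, and their levels covered a wide range within each group. Summed over the 9 genes, the FPKM level was 118 in MR1, 980.2 in MR3, 199.6 in MR3_4, 280.2 in MR4_5 and 53.1 in MR5. In the Model libraries the sum was 305 in MXL1, 129 in MXL12, 364 in MXL3_4 and 108 in MXL_3. All 4 Model sums thus lay between the lowest and the highest FJDHF-M sum. The 9 genes took 0.0109% of all counts in MR5 and 0.192% in MR3. MR3 was the highest library for 8 of the 9 genes, and MR5 the lowest for 8 of the 9.

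**Figure D1:**
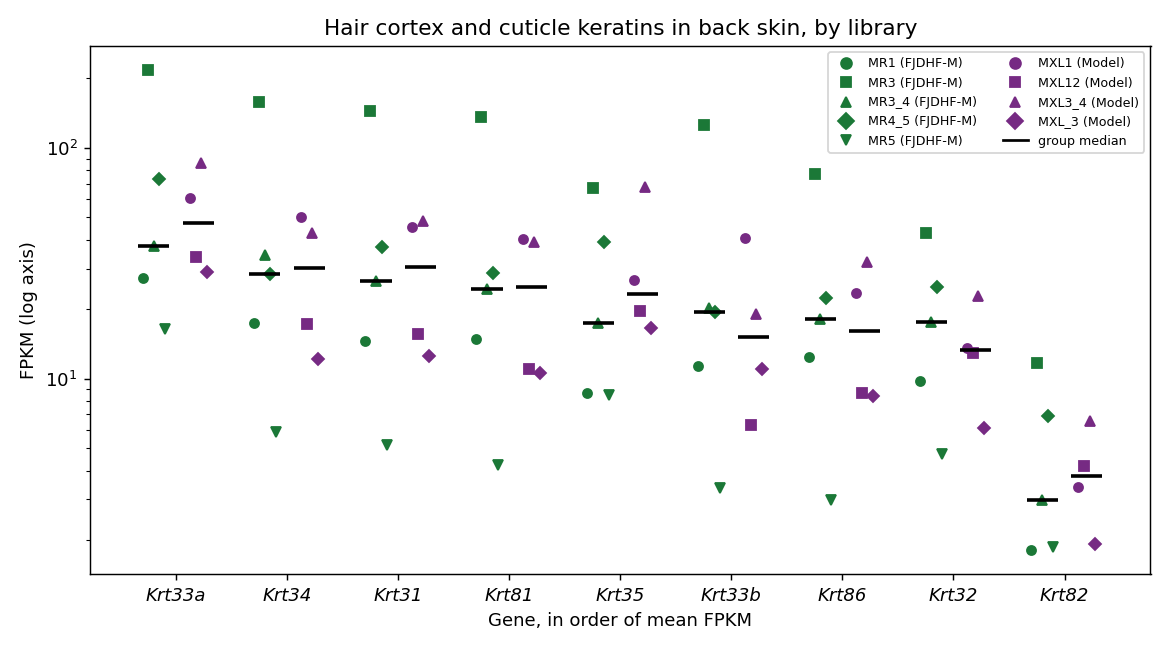
FPKM on a log axis for each keratin (genes in order of mean FPKM), with 1 point per library, green for FJDHF-M and purple for Model, and black bars for group medians. MR3 is the top point for every gene except Krt35, and the Model points lie inside the FJDHF-M range for 8 of the 9 genes.

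Krt33a, a type I keratin of the cortex, had the highest level. Its FPKM was 27.4 in MR1, 218 in MR3, 37.7 in MR3_4, 73.0 in MR4_5 and 16.4 in MR5, and 60.9 in MXL1, 33.7 in MXL12, 85.6 in MXL3_4 and 28.9 in MXL_3. The groups overlapped, with a median of 37.7 FPKM in FJDHF-M and 47.3 in Model. The fitted log2 fold change (FJDHF-M over Model, from the quasi-likelihood test of edgeR, p adjusted by Benjamini-Hochberg) was 0.47 ± 0.68 (SE), with an adjusted p of 1.00.

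Krt34, another type I cortex keratin, had an FPKM of 17.4 in MR1, 157 in MR3, 34.4 in MR3_4, 28.3 in MR4_5 and 5.87 in MR5. In Model it was 50.2 in MXL1, 17.3 in MXL12, 42.8 in MXL3_4 and 12.2 in MXL_3. The medians were 28.3 and 30.1 FPKM, and the spread between libraries of the same group was far larger than this gap. Krt31, next to it on the chromosome, was at 14.6, 144, 26.6, 37.1 and 5.14 FPKM in the FJDHF-M libraries, in the order used so far, and at 45.5, 15.7, 48.2 and 12.6 FPKM in the Model libraries. Like Krt34, it was highest in MR3 and lowest in MR5. Their log2 fold changes were 0.64 ± 0.81 for Krt34 and 0.54 ± 0.81 for Krt31 (SE, edgeR).

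Krt33b, a type I cortex keratin between Krt33a and Krt34 on the chromosome, varied most. Its FPKM was 11.3, 126, 20.2, 19.5 and 3.37 in FJDHF-M and 40.7, 6.30, 19.1 and 11.1 in Model. MR3 was 37.3 times MR5, and the Model libraries differed by up to 6.46 times. Krt33b also had the highest log2 fold change of the 9, at 0.87 ± 0.91 (SE, edgeR), with a 95% interval that runs from 0.452-fold to 7.38-fold.

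The type II partners of the cortex behaved in the same way. Krt81 was at 14.8, 137, 24.6, 28.8 and 4.22 FPKM in FJDHF-M and at 40.5, 11.0, 39.1 and 10.6 FPKM in Model. Krt86 was at 12.4, 76.9, 18.1, 22.4 and 2.99 FPKM in FJDHF-M and at 23.5, 8.65, 31.9 and 8.44 FPKM in Model. For both genes the highest and the lowest level were FJDHF-M libraries, and the log2 fold changes were 0.69 ± 0.84 and 0.51 ± 0.76 (SE, edgeR).

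Krt35, the early keratin of the matrix and precortex, stood apart in direction. It was at 8.64, 67.0, 17.4, 39.1 and 8.48 FPKM in FJDHF-M and at 26.9, 19.6, 68.0 and 16.6 FPKM in Model. MXL3_4 and MR3 were its highest libraries, 1 from each group, and it was the only 1 of the 9 genes with a fitted log2 fold change below 0, at -0.27 ± 0.65 (SE, edgeR). This sign turned to 0.38 without MXL3_4.

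Of the cuticle genes, Krt82 was the lowest of the 9 and Krt32 lay near the lower cortex keratins. Krt32, the type I keratin of the cuticle, was at 9.82, 42.8, 17.5, 25.1 and 4.74 FPKM in FJDHF-M and at 13.6, 13.0, 22.8 and 6.13 FPKM in Model. Krt82, the type II keratin of the cuticle, was at 1.81, 11.7, 2.97, 6.87 and 1.87 FPKM in FJDHF-M and at 3.41, 4.20, 6.58 and 1.92 FPKM in Model. Krt82 spanned the smallest range, 6.50-fold from MR1 to MR3. The log2 fold changes were 0.49 ± 0.57 for Krt32 and 0.28 ± 0.58 for Krt82 (SE, edgeR). Krt32 shares 249 exon bases with Gm11571 on the opposite strand. The study's methods describe a strand-specific library, but whether the counting used the strand is not given in the sources used here.

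In the edgeR fit used here, none of the 9 keratins passed the study's criteria of an adjusted p under 0.05 and a change of at least 2-fold. Neither did any other gene, so the background was 0% of 20817 genes tested. The study itself reports differentially expressed genes between these groups, screened at those criteria. At an unadjusted p under 0.05, 0 of the 9 passed, against 1.57% of all tested genes, and the unadjusted p of the 9 lay between 0.360 and 0.688 (edgeR). DESeq2's Wald test called 12 of 34420 genes, 0 of them among the 9. The groups overlapped for 9 of 9 genes, where 0.528% of all tested genes had groups that did not overlap. The median log2 fold change was 0.51 over the 9 and -0.03 over all tested genes. The 95% intervals reached from 0.306-fold for Krt35 to 7.38-fold for Krt33b, so changes of 2-fold in at least 1 direction remained possible for each gene.

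**Figure D2:**
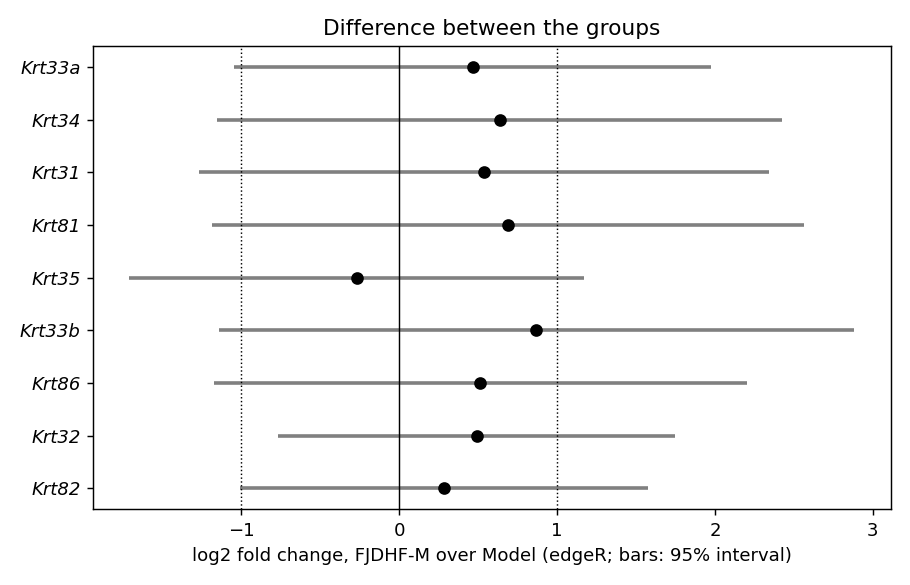
log2 fold change of each keratin, FJDHF-M over Model, from edgeR (points) with 95% intervals (bars); the dotted lines mark 2-fold in each direction. Every bar crosses 0, and 8 of the 9 points lie above 0, which they do not without MR3.

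The positive fold changes rested on 1 library. Without MR3, 8 of the 9 log2 fold changes were below 0, from -0.87 for Krt35 to -0.30 for Krt82, and Krt32 was at 0.01. Without MR5, at the other extreme of the same group, 8 were above 0, up to 1.16 for Krt33b, and Krt35 was at -0.04. On the mean of log2(CPM + 0.5), which weighs each library equally, the groups differed by -0.46 for Krt35 to 0.30 for Krt32, and by 0.03 for Krt33a. Two-sided exact permutation tests, with 126 ways to assign the libraries, gave p from 0.556 to 1.00 for the 9 genes, where the smallest p these numbers allow is 0.00794. Suprabasal epidermis genes, a list of 5, had a median log2 fold change of 1.23 and neutrophil genes, also 5, one of -1.15. Of either list 0 genes were called. The mean log2(CPM + 0.5) of the neutrophil list was 5.54 in MXL12, but 1.62 in MXL1, 1.86 in MXL3_4 and 3.10 in MXL_3. In FJDHF-M it was 2.17 to 3.78. Whether either list moves with the keratins was not tested.

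These keratins differed more between libraries of the same group than most genes did. The within-group SD of log2(CPM + 0.5) had a median of 1.40 over the 9 genes and 0.353 over all tested genes. It was 1.58 for Krt33b, 1.52 for Krt81 and 1.47 for Krt31, and 0.964 for Krt82. Between 94.1% and 99.5% of tested genes had a smaller SD than a given keratin of the 9. A wide spread was not particular to them. The median SD was 1.21 for the 6 other hard keratins and 1.15 for the inner root sheath and companion layer keratins. It was 1.05 for the shaft enzymes, adhesion and matrix proteins and 1.01 for the keratin-associated proteins. Neutrophil genes, at 1.41, and skeletal muscle genes, at 1.68, were above the 9. FJDHF-M was more spread than Model for each, for example with an SD of 1.84 against 1.12 for Krt33b and 1.20 against 0.751 for Krt32. This difference in spread was not tested, and it rests in part on MR3 and MR5.

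**Figure D3:**
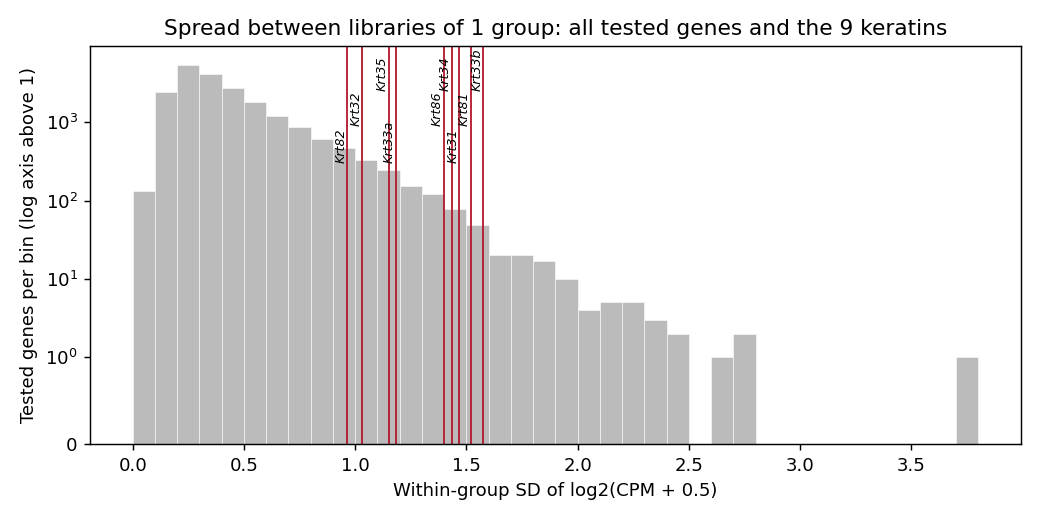
Within-group SD of log2(CPM + 0.5) for all 20817 tested genes (grey bars, number of genes per bin, log axis above 1), with a red line at each of the 9 keratins. The 9 lines lie at 0.964 to 1.58, right of the bulk of the genes, whose median is 0.353.

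The order of the levels was partly fixed. Krt33a was first in all 9 libraries and on average 0.84 ± 0.48 (SD, n = 9) above Krt34 on the log2 FPKM scale. Krt82 was last in all 9, with Krt32 above it by 1.91 ± 0.39. Krt31 exceeded Krt81 in 8 of 9 libraries, by 0.23 ± 0.16. The other neighbours in the order of mean FPKM, Krt34 (40.7) and Krt31 (38.8), Krt81 (34.5) and Krt35 (30.2), Krt35 and Krt33b (28.6), Krt33b and Krt86 (22.8), and Krt86 and Krt32 (17.3), differed by less than the spread between libraries. Krt35 moved most, from place 2 to place 8. The 6 type I levels summed to 3.07 to 4.85 times the 3 type II levels. This ratio leaves out the 6 other hard keratins, such as the type II Krt87, and the gene of the list that was not analysed.

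Near copies limit these orders. Stretches of each transcript were searched for in the transcripts of all other genes, inside and outside the 9. At 150 bases, 16.6% of those of Krt81 were shared with any other gene, and 15.4% with Krt86. Of those of Krt86, 14.4% were in Krt81. The share was 9.52% for Krt33a, or 146 of 1534 stretches, and as many as 146 of 1460 were shared in Krt34. It was 6.35% for Krt31 and 0% for Krt33b, Krt32, Krt35 and Krt82. Over stretches of 50 bases the shares were higher, at 43.5% for Krt81, 43.3% for Krt86, 33.1% for Krt34, 28.1% for Krt31, 24.2% for Krt33b, 21.9% for Krt33a and 3.95% for Krt35, and they were 0% for Krt32 and Krt82 only. At 50 bases, 38.0% of Krt81 was shared with Krt86 and 35.6% of Krt86 with Krt81, less than their full shares. The counting could have split or dropped reads from shared stretches. The levels of Krt81 against Krt86, and of Krt31, Krt33a, Krt33b and Krt34 against each other, are therefore uncertain by an unknown amount. Levels may also be uncertain against genes outside the 9.

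The 9 keratins did not move as 1 block. The 5 cortex keratins other than Krt33a (Krt31, Krt33b, Krt34, Krt81 and Krt86) summed to 8.16 times the FPKM of Krt35 in MR1, 9.57 times in MR3, 7.12 times in MR3_4 and 7.44 times in MXL1. In the other 5 libraries the same ratio was 3.48 in MR4_5, 2.55 in MR5, 3.01 in MXL12, 2.66 in MXL3_4 and 3.31 in MXL_3. No library lay between 3.48 and 7.12, and libraries of both groups were on each side. The ratio of Krt33a to Krt33b ran the other way, with 2.43 in MR1, 1.73 in MR3, 1.86 in MR3_4 and 1.50 in MXL1, against 3.75 in MR4_5, 4.87 in MR5, 5.35 in MXL12, 4.47 in MXL3_4 and 2.62 in MXL_3. Krt33b enters both of these ratios. The cuticle genes Krt32 and Krt82 together reached 0.306 times the sum of the 5 cortex keratins in MR5, 0.291 in MXL12, 0.235 in MR4_5, 0.166 in MR3_4, 0.165 in MR1, 0.162 in MXL3_4 and 0.147 in MXL_3, against 0.0851 in MR3 and 0.0849 in MXL1. This cuticle ratio did not follow the split of the other ratios, since MR1 and MR3_4 lay above MXL3_4 and MXL_3.

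Proliferation genes, a list of 10 with Mki67 as the most abundant, were set beside these ratios. Their mean log2(CPM + 0.5) was 4.49 in MR1, 4.67 in MR3_4 and 4.67 in MXL1, which had high cortex to Krt35 ratios, and 5.17 in MR3, which also had one. It was 5.76 in MR4_5, 5.23 in MR5, 5.65 in MXL12 and 5.42 in MXL3_4, which had low ratios, and 4.65 in MXL_3, which had one too. The score was thus higher in 4 of the 5 low-ratio libraries than in any of the high-ratio ones. Skeletal muscle genes, a list of 10, split the libraries in the opposite direction with the same exception. Their mean log2(CPM + 0.5) was 8.45 in MR1, 9.77 in MR3, 9.67 in MR3_4 and 8.64 in MXL1, against 7.17 in MR4_5, 7.62 in MR5, 5.47 in MXL12 and 7.56 in MXL3_4, while MXL_3 was at 10.6. The high and low ratios were split at the gap seen in these same libraries, and the other lists of the 17 are not set against this split here. The part of proliferation and of muscle content in the ratios was not tested.

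**Figure D4:**
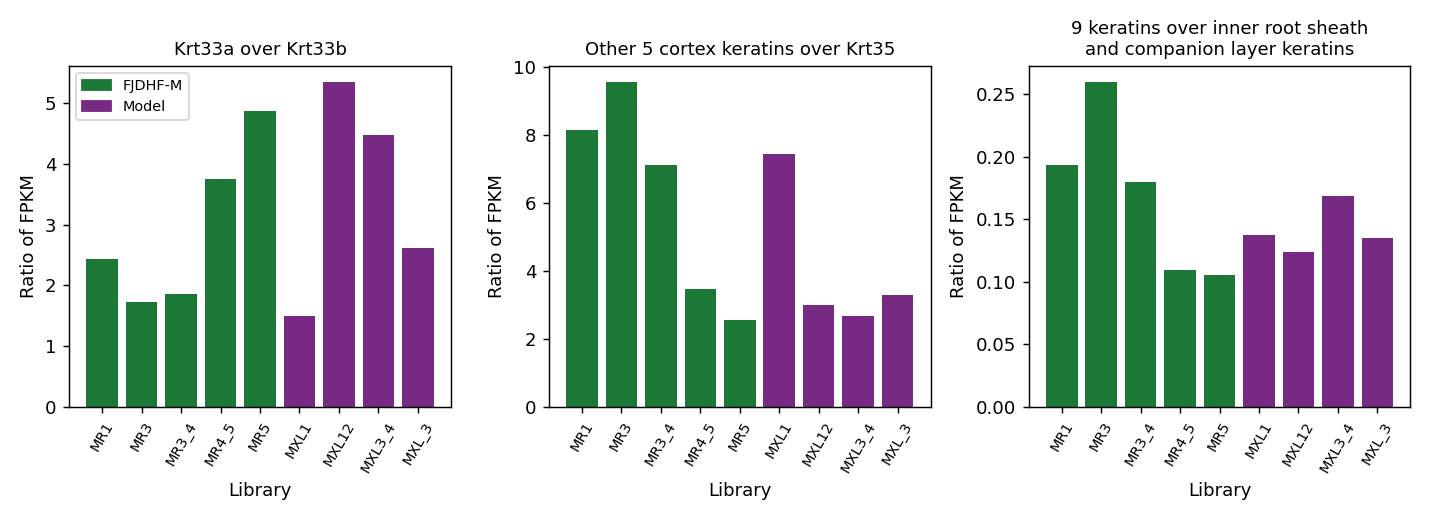
Ratios of FPKM in each library, with green bars for FJDHF-M and purple for Model: Krt33a over Krt33b, the other 5 cortex keratins over Krt35, and the 9 keratins over the inner root sheath and companion layer keratins. In the middle panel MR1, MR3, MR3_4 and MXL1 reach 7.12 to 9.57 and the other libraries 2.55 to 3.48.

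Genes of the neighbouring follicle layers were high in the same library, and only in part low in the same one. The list of 9 inner root sheath and companion layer keratins, whose cells sheathe the growing shaft, was highest in MR3 for 9 of 9 genes. Its mean log2(CPM + 0.5) was lowest in MR5, at 6.05, close to MR1 at 6.15. Krt27, Krt71, Krt72 and Krt73 had their lowest FPKM in MR5, Krt25 and Krt28 in MR1, and Krt26, Krt74 and Krt75 in MR3_4. Krt71, the most abundant of them, ranged from 207 to 1544 FPKM. The 9 shaft keratins together had 0.260 times the summed FPKM of this list in MR3, and 0.105 times in MR5. Of the list's genes, 5 had a log2 fold change above 0 and 4 below, with a median of 0.12 and 0 called.

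The 6 other hard keratins had a median log2 fold change of 0.04, with 3 above 0, 3 below and 0 called. Krt87, their most abundant gene, was at 20.7 to 166 FPKM, and 5 of the 6 genes were highest in MR3. The 57 keratin-associated proteins, which cross-link hard keratin filaments in the shaft, were highest in MR3 for 49 genes, and of the 54 tested 28 had a log2 fold change above 0 and 26 below. Krtap7-1 was at 166 to 2125 FPKM, and Krtap19-4, with the smallest unadjusted p of the list, had a log2 fold change of 1.45 ± 0.87 (SE, edgeR, adjusted p of 1.00). The mean levels of the other hard keratins and of the keratin-associated proteins were both highest in MR3 and lowest in MR5, like that of the 9. Of all 20817 tested genes, 1884 were highest in MR3.

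Regulators of the hair matrix varied less than the 9 keratins, but more than most genes. Their median within-group SD was 0.706, against 1.40 for the 9 and 0.353 for all tested genes. This list too had its highest mean level in MR3, with MR5 in place 8 and MXL_3 the lowest. Lef1 ranged from 0.672 FPKM in MR5 to 5.29 in MR3. The 16 genes, among them Wnt10b, a ligand of the matrix, had a median log2 fold change of 0.04 (9 above 0, 7 below, 0 called). The 6 shaft enzymes, adhesion and matrix proteins had a median of -0.04, and Tchh, trichohyalin of the inner root sheath and medulla, was at 170 to 846 FPKM. Of the 8 melanocyte genes, which mark the pigment cells that feed the cortex, 7 were highest in MR3 and 7 had a log2 fold change above 0 (median 0.65, 0 called). The melanocyte list was lowest in MXL_3, not in MR5.

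**Figure D5:**
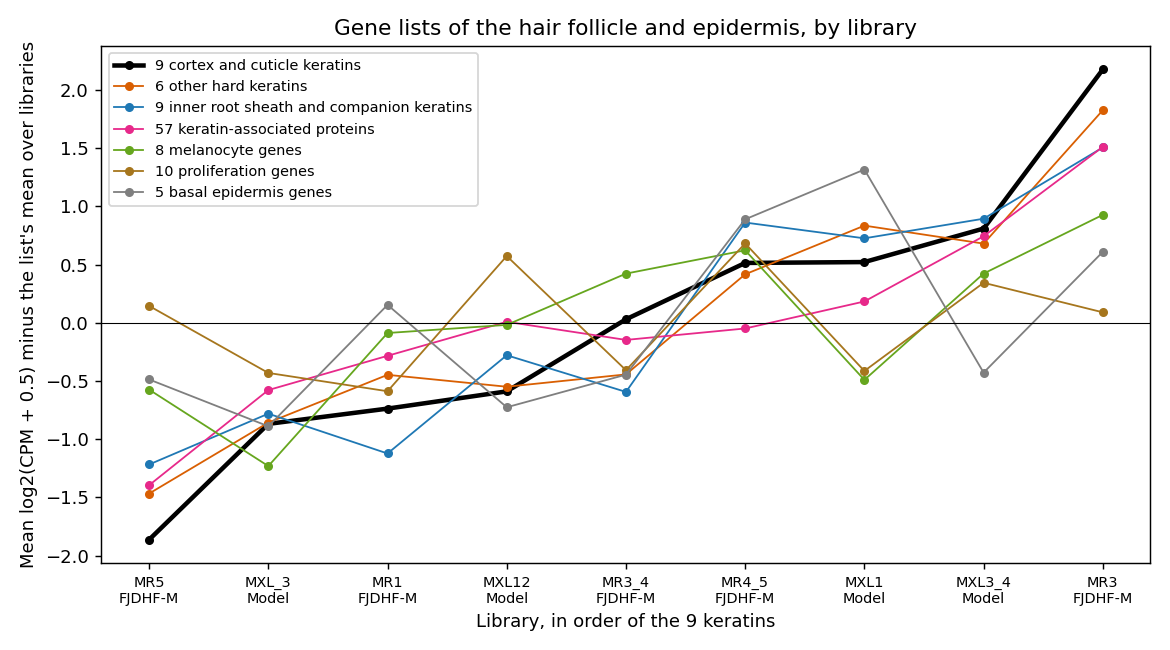
Mean log2(CPM + 0.5) of 7 gene lists in each library, minus the mean of the list over the 9 libraries, with libraries in the order of the 9 cortex and cuticle keratins (black). The black line runs from -1.86 in MR5 to 2.18 in MR3, the inner root sheath line from -1.22 to 1.51, and the proliferation line stays between -0.59 and 0.68.

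Muscle and suprabasal epidermis did not share the order of the 9 keratins, and basal epidermis shared it in part. The skeletal muscle list of 10 genes was highest in MXL_3, at a mean log2(CPM + 0.5) of 10.6, and lowest in MXL12, at 5.47, while the 9 keratins were at 4.35 and 4.63 there, within a range of 3.35 to 7.39. MR3, where the 9 were highest, was in place 2 of the muscle list, at 9.77. With the muscle score as a covariate the median log2 fold change of the 9 was 0.13, against 0.51 without it. The basal epidermis list was highest in MXL1 (9.27), MR4_5 (8.85) and MR3 (8.57) and lowest in MXL_3 (7.07), MXL12 (7.23) and MR5 (7.47). In MXL3_4, where the 9 were at 6.03, it was at 7.53. The suprabasal list was highest in MR1.

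The genes with a profile most like the mean of the 9, by the root mean square difference of centred log2(CPM + 0.5) over the 9 libraries, were Stra6 (0.173), Krt27 (0.295), Krt73 (0.310), Crym (0.311) and Capn12 (0.349). Keratins of the list itself and keratin-associated proteins were left out, and the median over the 20754 candidates was 1.16. Stra6, a membrane receptor for retinol uptake, was at 0.414 to 8.50 FPKM. It was closer to the mean profile than any of the 9. These differed from that profile by 0.187 (Krt33a) to 0.523 (Krt82), although each of the 9 helped to make it. Stra6 was picked as the closest of the 20754 candidates, whereas the 9 were fixed by name, so this comparison favours Stra6. Krt27 and Krt73 are keratins of the inner root sheath, at 66.1 to 723 and 23.4 to 220 FPKM.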

How the data were processed

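RNA of back skin was measured in 5 FJDHF-M and 4 Model libraries by paired-end sequencing of polyadenylated RNA. The authors deposited counts per gene, which are whole numbers without normalization, and FPKM values, which are scaled for gene length and depth. The submitters' processing notes name HISAT, StringTie, DESeq2 and mm10, without versions or roles. The FPKM table repeats the counts in 9 more columns, 1 per library, which were not used. The columns were assigned to groups as described in the report.

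The 9 genes and 17 other gene lists were chosen with earlier results of these data known. Counts were tested with edgeR 4.0.16 in R 4.3.3 (TMM scaling, filterByExpr, quasi-likelihood test, Benjamini-Hochberg adjustment over 20817 genes), and the steps were tested on simulated data. A call needed an adjusted p under 0.05 and a change of at least 2-fold. Single genes were compared with two-sided exact permutation tests on log2(CPM + 0.5). The 36 pairs of libraries differed by 126 to 587 times the sampling noise (chi-square per degree of freedom), so none was a repeat. The labels do not say whether the samples were from separate cages or litters, and p-values measure the spread between these libraries only.

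Named genes were the 9, and for each list the gene with the highest mean FPKM or the smallest unadjusted p, of which the text gives some, and the 5 genes with the most similar profile. Gene positions were taken from the table and matched GENCODE M21 for 9 of 9 genes. Promoter windows are from RefSeq. Alternatives used DESeq2 1.42.0, limma 3.58.1, other scalings, filters and pseudocounts, the muscle score as covariate, a replicate block and each library left out. Permutation tests used numpy 2.4.6, and figures matplotlib 3.10.9.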

Additional observations from a re-analysis of the deposited data

How the results depend on the processing

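The count of keratins called stayed at 0 of 9 in edgeR, DESeq2 and limma fits under all 18 alternatives, library omissions included, and the lowest adjusted p of any of the 9 was 0.983. DESeq2's Wald test called 12 genes among all tested, and the other alternatives 0. The median log2 fold change of the 9 (0.51) lay between 0.10, from limma on log2(FPKM + 1), and 0.72, from the 6 libraries of the block fitted without it, which was added after seeing the data. With 1 library left out it ranged from -0.51 (without MR3) to 0.86 (without MXL3_4).

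With 1 library left out, the log2 fold change ranged from -0.58 to 0.87 for Krt31, 0.01 to 0.85 for Krt32, -0.47 to 0.82 for Krt33a, -0.53 to 1.50 for Krt33b, -0.53 to 0.96 for Krt34, -0.87 to 0.38 for Krt35, -0.51 to 0.99 for Krt81, -0.30 to 0.63 for Krt82 and -0.40 to 0.95 for Krt86. The difference in mean log2(CPM + 0.5) ranged from -0.62 to 0.56 for Krt31, -0.064 to 0.71 for Krt32, -0.51 to 0.42 for Krt33a, -0.45 to 0.83 for Krt33b, -0.54 to 0.63 for Krt34, -0.88 to -0.03 for Krt35, -0.51 to 0.73 for Krt81, -0.32 to 0.33 for Krt82 and -0.45 to 0.70 for Krt86. For Krt31 it turned from -0.01 to 0.0028 with a pseudocount of 1 and to 0.013 on log2(FPKM + 1). In ranks it turned to -0.45 for Krt33a and to -0.45 for Krt82. None of the 9 reached an exact permutation p under 0.05 in any alternative, and the lowest was 0.286.

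The column codes share 3 numbers between the groups, and the deviations of the paired libraries correlated at 0.225 (MR1 and MXL1), 0.116 (MR3 and MXL_3) and -0.223 (MR3_4 and MXL3_4), so the numbers were not taken as pairs. With the replicate block over these 6 libraries the median log2 fold change of the 9 was 0.26 and 0 genes were called. With 5 libraries against 4, the 95% intervals of these keratins reach from 0.306-fold to 7.38-fold, while each had at least 306 counts in every library.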

Other observations

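The remaining marker lists had 0 genes called by edgeR. The 7 bulge and outer root sheath genes, which mark the stem cells that rebuild the follicle and its outer wall, had a median log2 fold change of -0.20, with 2 above 0 and 5 below. Krt15, the most abundant of them, was at 29.3 to 236 FPKM. The 5 dermal papilla genes, which mark the mesenchymal cells that signal to the hair matrix, had a median of 0.23, with 4 above 0 and 1 below. The 10 proliferation genes had a median of -0.10, with 3 above 0 and 7 below. The 5 basal epidermis genes had a median of 0.10. Of the 5 suprabasal epidermis genes, 5 had a log2 fold change above 0 and 4 an unadjusted p under 0.05, and Krt10 was at 1388 to 2435 FPKM in FJDHF-M and at 446 to 1657 FPKM in Model.

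Outside the epithelium, the 6 fibroblast genes had a median log2 fold change of -0.42, with 6 below 0, and the 10 skeletal muscle genes one of -0.22. The medians were 0.23 for 6 adipocyte genes, 0.24 for 4 macrophage genes and 0.01 for 6 T cell genes. The neutrophil list was highest in MXL12, where S100a9, a calcium-binding protein of neutrophils and inflamed keratinocytes, reached 464 FPKM.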
